A study of Mus musculus with 12 samples.

Results

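The genes described are 9 protein-coding genes that flank the retinoblastoma gene Rb1 on mouse chromosome 14: Entpd4, Phyhip, Rcbtb2, Lpar6, Itm2b, Med4, Sucla2, Htr2a and Esd. They are 9 of the 19938 genes measured under a single gene symbol. A group of 6 (Rcbtb2, Lpar6, Itm2b, Med4, Sucla2 and Esd) was taken for their place beside Rb1. The other 3 (Phyhip, Entpd4 and Htr2a) were taken to be those picked from results of these arrays. The values used for that choice are not given, and were taken to be log2 differences between mutant and matched wild type. The differences of these 3 in those comparisons are therefore given as a description without a test. Their differences between the wild types use the same controls and are given in the same way. In the gene order of the RefSeq table, counted in measured genes from Rb1, Entpd4 lies 34 genes and Phyhip 17 genes to the one side and Rcbtb2 is the neighbour on that side. On the other side come Lpar6, Itm2b, Med4, Sucla2, Htr2a and Esd, at places 2 to 7. Lpar6 lies inside the span of Rb1 itself.

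RNA was measured on 12 Affymetrix Mouse Gene 1.0 ST arrays, 3 for each of 4 groups of mouse embryonic fibroblasts. The S set holds cells with the Rb1 S/S mutant genotype and Rb1 +/+ cells matched to them, and the L set holds cells with the Rb1 L/L mutant genotype and Rb1 +/+ cells matched to those. All cells were grown with 10% serum to passage 4 and then held in 0.1% serum for 72 h to stop growth. These controls are called the S-set and the L-set control. What the alleles named S and L alter is not in the labels, nor are the strains, nor whether the 3 arrays of a group came from separate embryos. The p-values therefore set each difference against the spread between these arrays, which may not be the spread between embryos.

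Rb1 encodes a pocket protein that binds E2F transcription factors and holds back genes of DNA replication and cell division when cells leave the cycle. Genes that lie close together on a chromosome are usually inherited together, so the neighbours of a mutated locus mostly travel with it when a line is bred. The parental origin of the alleles of the 9 genes was not measured here.

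The promoters of Lpar6, Sucla2 and Htr2a are printed because all S/S arrays of Lpar6 and Htr2a read above their wild type, while Sucla2 lies between them and its arrays overlapped. Each runs 5′ to 3′ from 250 bases before to 50 bases after the annotated start, from RefSeq (GRCm38.p6), plus strand, with CG dinucleotides in capitals.
Lpar6, chr14:73237641-73237940: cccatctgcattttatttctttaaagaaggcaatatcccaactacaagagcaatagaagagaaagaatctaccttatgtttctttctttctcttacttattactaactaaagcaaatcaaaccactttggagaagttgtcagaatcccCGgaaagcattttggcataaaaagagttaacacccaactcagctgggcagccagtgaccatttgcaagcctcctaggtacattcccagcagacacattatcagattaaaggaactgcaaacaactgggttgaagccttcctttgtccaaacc
Sucla2, chr14:73552536-73552835: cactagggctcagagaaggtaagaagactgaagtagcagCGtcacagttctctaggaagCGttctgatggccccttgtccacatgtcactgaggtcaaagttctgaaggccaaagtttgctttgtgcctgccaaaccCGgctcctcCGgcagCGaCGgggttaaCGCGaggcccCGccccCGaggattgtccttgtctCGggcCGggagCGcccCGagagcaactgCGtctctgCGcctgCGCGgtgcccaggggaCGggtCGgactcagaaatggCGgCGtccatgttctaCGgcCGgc
Htr2a, chr14:74640624-74640923: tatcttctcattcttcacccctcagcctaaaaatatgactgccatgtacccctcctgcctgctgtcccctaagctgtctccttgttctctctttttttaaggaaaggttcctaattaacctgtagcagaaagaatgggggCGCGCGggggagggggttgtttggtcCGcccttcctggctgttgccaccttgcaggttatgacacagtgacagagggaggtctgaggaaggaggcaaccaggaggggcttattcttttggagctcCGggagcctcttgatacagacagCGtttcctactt
The Lpar6 window held 1 CG and the Htr2a window 6, whereas the Sucla2 window held 24. The median over the 32851 promoters of the table was 7. Itm2b held 21, Med4 and Esd 17 each, and the 2 listed starts of Rcbtb2 held 8 and 1. Entries were matched for 7 members (8 starts), and Phyhip and Entpd4 had none. E2F-type sites were searched on both strands as TTTCCCGC, TTTCGCGC, TTTGCCGC and TTTGGCGC, and no other motif was searched. They were in 0 of the 8 windows, against 2.26% of all promoters of the same length, which says only that these letters are not in these windows.

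Values are log2 RMA values, so a difference of 1 is a 2-fold difference. Array 1 of the S-set control differed from the rest, with an interquartile range of 2.72 against 3.17 to 3.39 in the other 11 arrays and a residual SD of 0.325 against at most 0.193. Arrays numbered 1 of both L groups showed a male pattern (low Xist, high Y-linked genes) and the other 10 a female pattern. Y-linked genes read 3.82 to 5.51 in female arrays, and all group means of the 9 genes lay above that range. All 14 fibroblast markers, such as Col1a1 and Vim, lay above that range in every group, with group means from 8.19 to 13.51. Macrophage and blood cell markers had an array mean of 7.84 to 8.13 in the S-set control and 8.68 to 8.79 in S/S, and of 7.39 to 9.47 and 7.04 to 8.67 in L-set control and L/L. None of these 12 markers was at or under the Y-linked range, and 0 passed between mutant and wild type in either set. In S/S all 12 read higher, at a median of 0.71 against −0.04 over all genes. Arrays lay wholly above the control for 11 of them, against 5.49% of all genes. In L/L 11 of the 12 read lower, at a median of −0.34 against 0.02 over all genes, and arrays overlapped the control for all 12. The part of these markers in the S/S results was not tested. Of 29 measured E2F target genes 0 passed in S/S, at a median difference of −0.16 against −0.04 over all genes. In L/L 1 (Mcm6, higher) passed, against 0.0401% of all genes, at a median of 0.51 against 0.02. Arrays of L/L lay wholly above the control for 20 of the 29, against 9.71% of all genes. Those of S/S lay wholly below for 7, against 6.29%.

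Rb1 RNA was present in every group. It read 8.34, 8.83 and 8.89 in the S-set control and 9.72, 9.58 and 9.35 in S/S. The groups did not overlap, as for 11.8% of all genes, and the difference of 0.87 (SE 0.17) did not pass (adjusted p = 0.0976, limma, over all 19938 genes). Without array 1 of the S-set control it was 0.69, and without both arrays numbered 1 of that set 0.61. With limma array weights, which called 415 genes in S/S, it was 0.69 and passed (adjusted p = 0.0177). Rb1 read 9.23, 9.05 and 8.61 in the L-set control and 9.39, 9.36 and 9.23 in L/L, where the groups touched at 9.23 and the difference was 0.36 (SE 0.17, adjusted p = 1). In such bulk samples, fewer cells of a type and less RNA per cell cannot be told apart.

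**Figure D1:**
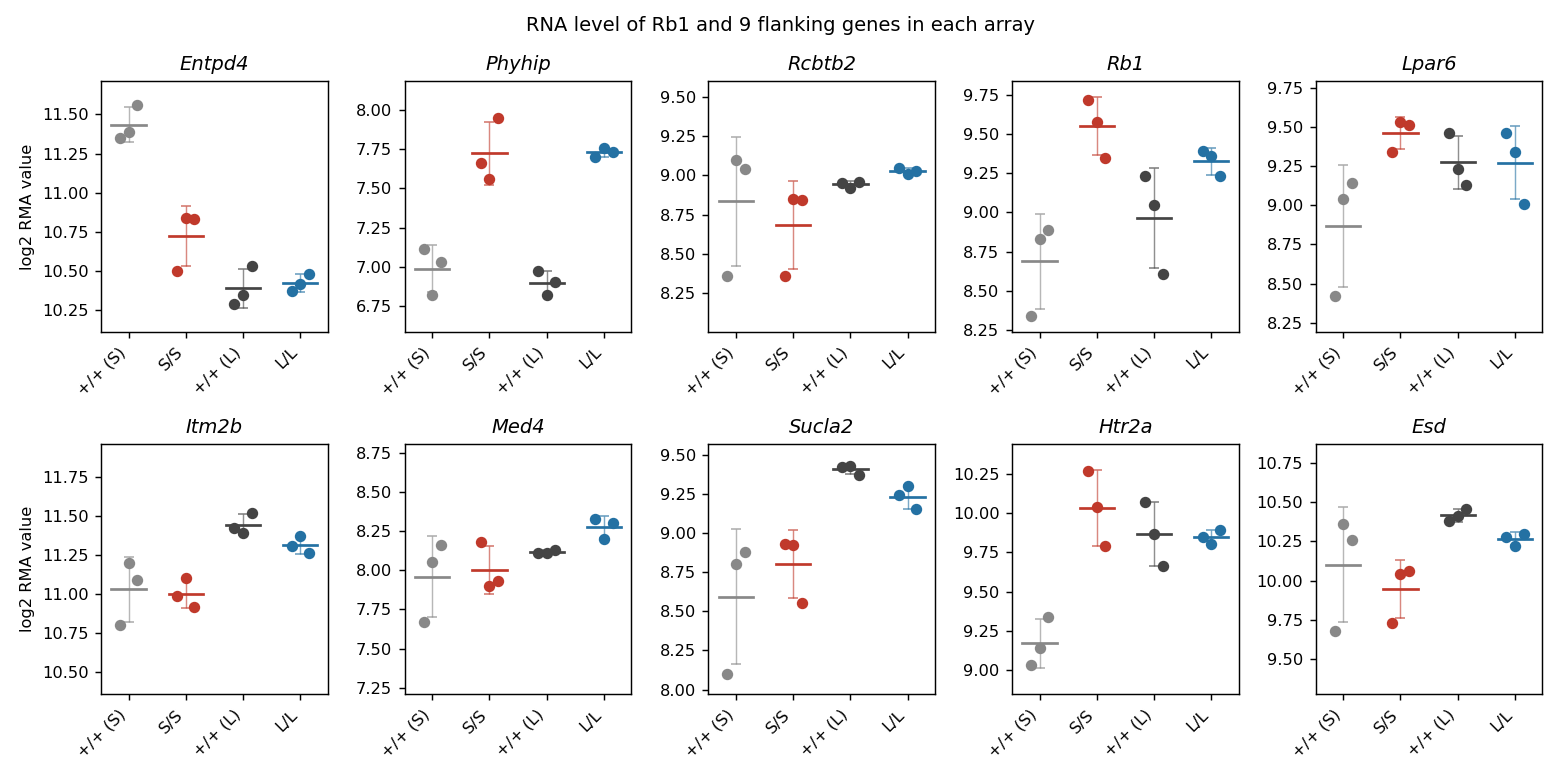
Log2 RMA values of Rb1 and the 9 flanking genes in the order of the chromosome. Points are single arrays, horizontal lines group means and vertical bars the SD over 3 arrays; +/+ (S) and +/+ (L) are the wild types matched to S/S and L/L. Phyhip is higher in both mutants than in both wild types, and the S-set control is highest of the 4 groups for Entpd4 and lowest for Htr2a.

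Phyhip read higher in both mutants than in the matched wild types, with no overlap between arrays. It encodes a protein that binds phytanoyl-CoA hydroxylase, an enzyme of branched-chain fatty acid breakdown, and it is known mainly from brain. It read 7.11, 6.82 and 7.03 in the S-set control and 7.66, 7.56 and 7.95 in S/S. It read 6.97, 6.82 and 6.9 in the L-set control and 7.70, 7.76 and 7.73 in L/L. All 6 mutant arrays therefore lay above all 6 wild-type arrays. The S/S difference was 0.74 (SE 0.12), which is 1.67-fold, and the L/L difference was 0.83 (SE 0.12), which is 1.78-fold. The difference between the effects was −0.10, with a 95% interval of −0.46 to 0.26. The wild types differed by −0.09 (interval −0.35 to 0.16) and the mutants, S/S minus L/L, by −0.01 (interval −0.26 to 0.25).

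Of 11 measured neural markers, 0 passed in either mutant, with medians of −0.22 in S/S and 0.01 in L/L. Without array 1 of the S-set control the S/S difference of Phyhip was 0.80, and without both arrays numbered 1 of that set it was 0.83. Without both male arrays the L/L difference was 0.89. The part of macrophage or neural cells in the Phyhip values was not tested.

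Over 12 arrays, the genes whose standardized profile was closest to that of Phyhip were Kank3, Rasl11a and Tfpi2. Their mean absolute differences from it were 0.321, 0.322 and 0.335 SD, against a median of 1.12 over all genes. Tfpi2, for instance, which was picked for this closeness, read 7.35 and 7.70 in S-set control and S/S and 7.41 and 7.66 in their L-set counterparts. Among the other members and Rb1, Rb1 was the closest to Phyhip, at 0.659, and Esd the farthest, at 1.461. Over all genes Rb1 ranked 235 in closeness. Phyhip was taken as picked on its mutant differences, which these profiles include, so nothing is read from this order.

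Entpd4 stood out through the S-set control. It encodes an intracellular nucleoside diphosphatase of the Golgi and lysosomal membranes. It read 11.35, 11.39 and 11.56 in that wild type and 10.50, 10.84 and 10.83 in S/S. It read 10.29, 10.35 and 10.53 in the L-set control and 10.37, 10.42 and 10.48 in L/L. The S-set control lay above all 9 other arrays, while L-set control and L/L overlapped. The S/S difference was −0.71 (SE 0.12), which is 1.64-fold lower, and the L/L difference was 0.03 (interval −0.22 to 0.29). The 2 wild types, which share the Rb1 genotype, differed by −1.04 (SE 0.12, L set minus S set). S/S lay 0.33 above the L-set control (interval 0.08 to 0.59).

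The RefSeq table lists a further gene on the chromosome, Entpd4b, and no probe set carried that symbol alone. Whether the Entpd4 probe set also reads RNA of Entpd4b was not tested, so the values may be a sum over both genes. The profiles closest to Entpd4 were those of Ifrd2, Fanci and Rflna, at 0.135, 0.204 and 0.219 SD against a median of 1.03. These 3 genes were picked for this closeness, so a like order of groups follows from the choice. Fanci, for instance, read 7.10 in the S-set control, 6.69 in S/S, 6.40 in the L-set control and 6.47 in L/L.

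Htr2a was lowest in the S-set control, where Entpd4 was highest. It encodes the serotonin 2A receptor, a Gq-coupled receptor of neurons and smooth muscle. It read 9.03, 9.14 and 9.34 in the S-set control and 10.27, 10.04 and 9.79 in S/S. It read 10.07, 9.87 and 9.66 in the L-set control and 9.85, 9.80 and 9.89 in L/L. The S-set control lay below all 9 other arrays, and the other 3 groups overlapped. The S/S difference was 0.87 (SE 0.14), which is 1.82-fold, and the L/L difference was −0.02 (interval −0.32 to 0.28). Without array 1 of the S-set control the S/S difference was 0.79, and without both arrays numbered 1 of that set 0.68. The L-set control lay 0.70 (SE 0.14) above the S-set control. S/S minus the L-set control was 0.17 (interval −0.13 to 0.47).

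The contrast of effects, S/S minus L/L, was 0.89 (SE 0.20) for Htr2a and −0.74 (SE 0.17) for Entpd4, and 0 of the 9 genes passed in it (limma, adjusted p under 0.05, against 0.015% of all genes, 0.00502% higher and 0.01% lower). An unadjusted p under 0.05 was found for 3 of the 9, Htr2a and Entpd4 among them. Both were taken as picked on differences that make up this contrast, so nothing is read from that count. Of the 6 genes taken for their place it was 1 (Lpar6), against 6.5% of all genes. Smooth muscle markers, of which 0 of 8 passed in S/S (median 0.13) and 0 in L/L (median 0.12), had array means of 9.92 to 10.03 and 9.99 to 10.30 in S-set control and S/S, and of 9.50 to 9.61 and 9.48 to 9.82 in L-set control and L/L. Between the wild types all 8 read lower in the L set, at a median of −0.38 against −0.07 over all genes. Against 5.17% of all genes called lower there, 3 of these 8 markers passed. Their part in the Htr2a values was not tested. Closest in profile to Htr2a were Tank, Rbms1 and Pid1, at 0.254, 0.268 and 0.279 SD against a median of 1.09. Tank, picked for this closeness, read 9.78 in the S-set control and 10.19 to 10.21 in the other groups. Rb1 was 67th of all genes in closeness to Htr2a, at 0.435. Htr2a was taken as picked on its S/S difference, and Rb1 also read higher in S/S, so nothing is read from this rank.

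**Figure D2:**
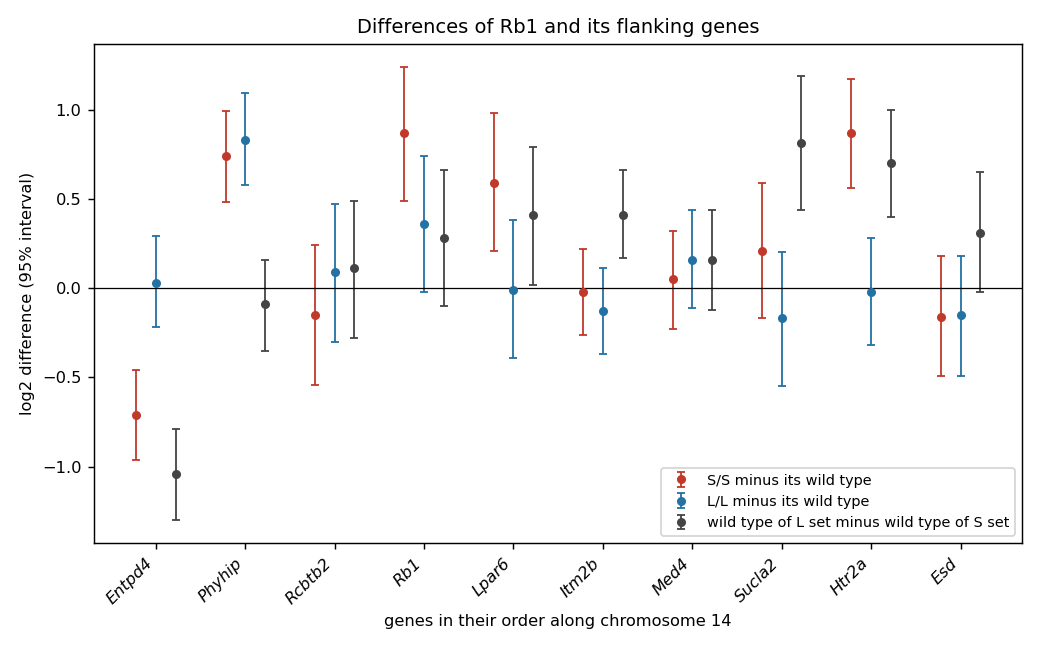
Log2 differences of Rb1 and the 9 genes in chromosome order, with 95% intervals from limma, for each mutant against its wild type and for the wild types against each other. Phyhip has differences of 0.74 and 0.83 in the mutants, and Entpd4 and Htr2a have S/S differences of −0.71 and 0.87 beside −1.04 and 0.70 between the wild types. Phyhip, Entpd4 and Htr2a were taken as picked on the mutant differences, so their intervals describe precision and are no test.

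In S/S cells 3 of the 9 genes passed, against 0.12% of all genes. The 2 higher stand beside 0.0903% of all genes called higher and the 1 lower beside 0.0301% called lower. In L/L 1 passed, higher, against 0.0401%. The 3 are the genes taken as chosen for such differences and the 1 is Phyhip, among them, so nothing is read from either count. Of the 690 other measured genes on chromosome 14 with a place in the table, Rb1 included, 0 passed in S/S and 0 in L/L, while 67 and 29 had an unadjusted p under 0.05. The shares of all genes under that p were 10.1% and 3.27%. Among the picked genes the smallest S/S difference in size was that of Entpd4 (−0.71). Next in size among the 9 genes was Lpar6, at 0.59, which did not pass. The S/S differences of the 690 other genes ran from −0.99 to 0.99.

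Lpar6 had S/S arrays that lay wholly above their wild type, and the other 5 genes taken for their place overlapped there. It encodes a lysophosphatidic acid receptor, known in humans for its role in hair growth, and it is nested in Rb1. It read 8.42, 9.04 and 9.14 in the S-set control and 9.34, 9.53 and 9.51 in S/S. It read 9.46, 9.23 and 9.13 in the L-set control and 9.46, 9.34 and 9.01 in L/L. Array 1 of the S-set control was the lowest of the 12 arrays. The S/S difference was 0.59 (SE 0.18) and did not pass (adjusted p = 0.303). Without that array it was 0.37 (SE 0.14, adjusted p = 0.332). The L/L difference was −0.01 (interval −0.39 to 0.38). Arrays lay wholly above in S/S for 5.49% of all genes, and wholly below for 6.29%. Array 1 of the S-set control was also the lowest of the 12 for Rb1, Itm2b, Med4, Sucla2, Htr2a and Esd, so that low is not particular to Lpar6 and Rb1. Whether the probe sets of Lpar6 and Rb1 read separate RNA was not tested.

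Rcbtb2, the nearest measured neighbour on the other side, encodes a protein with RCC1-type repeats and a BTB domain. It read 8.36, 9.10 and 9.04 in the S-set control and 8.36, 8.85 and 8.84 in S/S, so that array 1 was low in both groups. It read 8.95, 8.92 and 8.96 in the L-set control and 9.05, 9.01 and 9.03 in L/L. The S/S difference was −0.15 (SE 0.18, adjusted p = 0.755) and the L/L difference 0.09 (SE 0.18, adjusted p = 1). Without array 1 of the S-set control the S/S difference was −0.39 (SE 0.13, adjusted p = 0.274).

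Itm2b encodes a membrane protein whose mutations cause familial dementias in humans. It read 10.80, 11.20 and 11.09 in the S-set control and 10.99, 11.10 and 10.92 in S/S. It read 11.42, 11.39 and 11.52 in the L-set control and 11.31, 11.37 and 11.26 in L/L. The mutant differences were −0.02 (SE 0.11, adjusted p = 0.951) in S/S and −0.13 (SE 0.11, adjusted p = 1) in L/L. All 6 arrays of the L set lay above all 6 of the S set, whatever the genotype. The share of all genes with such a split was not computed. The wild types alone did not overlap for 27.6% of all genes, with 11.5% higher in the L set.

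Med4 encodes a subunit of Mediator, the complex that links transcription factors to RNA polymerase II. It read 7.67, 8.05 and 8.16 in the S-set control and 8.18, 7.90 and 7.93 in S/S. It read 8.11, 8.11 and 8.13 in the L-set control and 8.33, 8.20 and 8.30 in L/L. The differences were 0.05 (SE 0.13, adjusted p = 0.903) in S/S and 0.16 (SE 0.13, adjusted p = 1) in L/L. A second probe set annotated to Med4 had group means of 7.18 in the S-set control, 7.16 in S/S, 7.50 in the L-set control and 7.60 in L/L.

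Sucla2 encodes the ADP-forming beta subunit of succinyl-CoA synthetase, an enzyme of the citric acid cycle. It read 8.10, 8.80 and 8.88 in the S-set control and 8.93, 8.92 and 8.55 in S/S. It read 9.42, 9.43 and 9.37 in the L-set control and 9.24, 9.30 and 9.15 in L/L. As with Itm2b, the L set lay above the S set in every array, again without a share over all genes to set beside it. The S/S difference was 0.21 (SE 0.18, adjusted p = 0.658), and it was −0.04 without array 1 of the S-set control. The L/L difference was −0.17 (SE 0.18, adjusted p = 1).

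Esd encodes esterase D, which breaks down S-formylglutathione. It read 9.68, 10.36 and 10.26 in the S-set control and 9.73, 10.04 and 10.06 in S/S. It read 10.38, 10.41 and 10.46 in the L-set control and 10.28, 10.22 and 10.30 in L/L. The differences were −0.16 (SE 0.16, adjusted p = 0.709) in S/S and −0.15 (SE 0.16, adjusted p = 1) in L/L. Its second probe set had group means of 9.95, 9.81, 10.26 and 10.10 in the same order of groups, each lower in the mutant than in its control.

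Of the 6 genes taken for their place, 0 passed in S/S and 0 in L/L (limma), against 0.12% and 0.0401% of all genes, shares at which a count of 0 says nothing particular about these 6. An unadjusted p under 0.05 was found for 1 and 0 of them, against 10.1% and 3.27% of all genes. Absolute differences had a median of 0.15 in S/S and 0.14 in L/L, against 0.13 and 0.07 over all genes. In the L set the SD within a group was at most 0.08 for 5 of the 6 genes and 0.17 and 0.23 for Lpar6. Wild type and L/L did not overlap for those 5 genes, 2 higher and 3 lower, against 14.8% of all genes (9.71% higher and 5.1% lower). Those 5 differences were small, from −0.17 for Sucla2 to 0.16 for Med4. With the L set fitted alone the adjusted p of the 6 genes was 0.483 to 0.994.

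**Figure D3:**
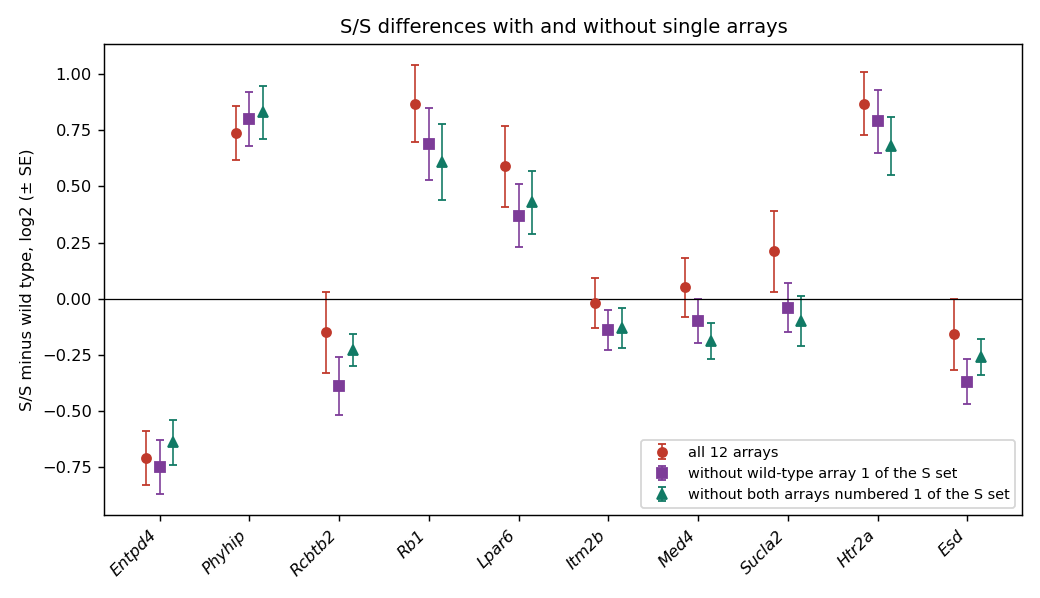
S/S minus wild-type log2 differences with their SE in chromosome order, from all 12 arrays, without array 1 of the S-set control, and without both arrays numbered 1 of that set. Med4 and Sucla2 lie on either side of 0, while Rb1 and the other genes, Rcbtb2, Itm2b and Esd included, keep their side.

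The comparison of the wild types asks how far the same Rb1 genotype differed between the sets. All 6 genes taken for their place read higher in the L-set control, by 0.11 to 0.81, against a median of −0.07 over all genes. Sucla2 was higher by 0.81 (SE 0.18, adjusted p = 0.0142) and Itm2b by 0.41 (SE 0.11, adjusted p = 0.0382), and these 2 of the 6 passed, against 8.71% of all genes and 3.54% called higher. Arrays did not overlap for 3 of the 6, all higher, against 27.6% of all genes, 11.5% higher and 16.1% lower. The call for Sucla2 was lost without array 1 or array 2 of the L-set control (adjusted p = 0.0593 and 0.0551), and that for Itm2b in 8 of the 12 fits that leave out an array, with adjusted p from 0.0254 to 0.116. Esd (0.31, adjusted p = 0.244), Lpar6 (0.41, adjusted p = 0.182), Med4 (0.16, adjusted p = 0.485) and Rcbtb2 (0.11, adjusted p = 0.738) did not pass. Without array 1 of the S-set control the 6 differences ran from −0.13 for Rcbtb2 to 0.57 for Sucla2. Marker lists differed between the same groups: of 29 E2F targets 10 passed, all lower in the L-set control (median −0.44), and of 14 fibroblast markers 1 passed higher and 1 lower (median 0.23). Of 12 macrophage and blood cell markers 0 passed (median 0.31). The part of these lists in the values of the 6 genes was not tested. Set, culture and array handling cannot be told apart in this comparison.

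The 32 other measured genes between Entpd4 and Esd gave the surroundings. In S/S 0 of them passed (limma), with a median of −0.06 against −0.04 over all genes, and 6 of the 32 had an unadjusted p under 0.05, against 10.1% of all genes. In L/L 0 passed, with a median of 0.03 against 0.02 over all genes, and 4 of the 32 had an unadjusted p under 0.05, against 3.27% of all genes. Tnfrsf10b, a death receptor gene 31 measured genes from Rb1 on the side of Entpd4, read higher in both mutants, by 0.39 in S/S (adjusted p = 0.24) and by 0.44 in L/L (adjusted p = 0.361), with its wild types 0.01 apart. Reep4, an endoplasmic reticulum shaping gene, had the lowest adjusted p in S/S (−0.43, adjusted p = 0.197). The surfactant gene Sftpc (−0.43), Fam160b2 (0.25) and 9930012K11Rik (0.26) had adjusted p from 0.429 to 0.466. In L/L the next were Sorbs3 (0.31), Gfra2 (0.43), the procollagen proteinase gene Bmp1 (−0.29) and Nudt18 (0.24), each with an adjusted p of 1.

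Between the wild types 3 of the 32 passed, all lower in the L set, against 5.17% of all genes called lower. They were Gfra2, a receptor of the neurturin family (−1.03, adjusted p = 0.00628), the vinculin-binding gene Sorbs3 (−0.59, adjusted p = 0.0117) and the calcineurin subunit gene Ppp3cc (−0.40, adjusted p = 0.0263). Reep4 (−0.32, adjusted p = 0.0821) and Fam160b2 (0.30, adjusted p = 0.111) came next. Gfra2, 4 measured genes from Rb1 on the side of Entpd4, read 9.07 ± 0.29 (SD, n = 3) in the S-set control and 8.04 ± 0.25 (SD, n = 3) in the L-set control.

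**Figure D4:**
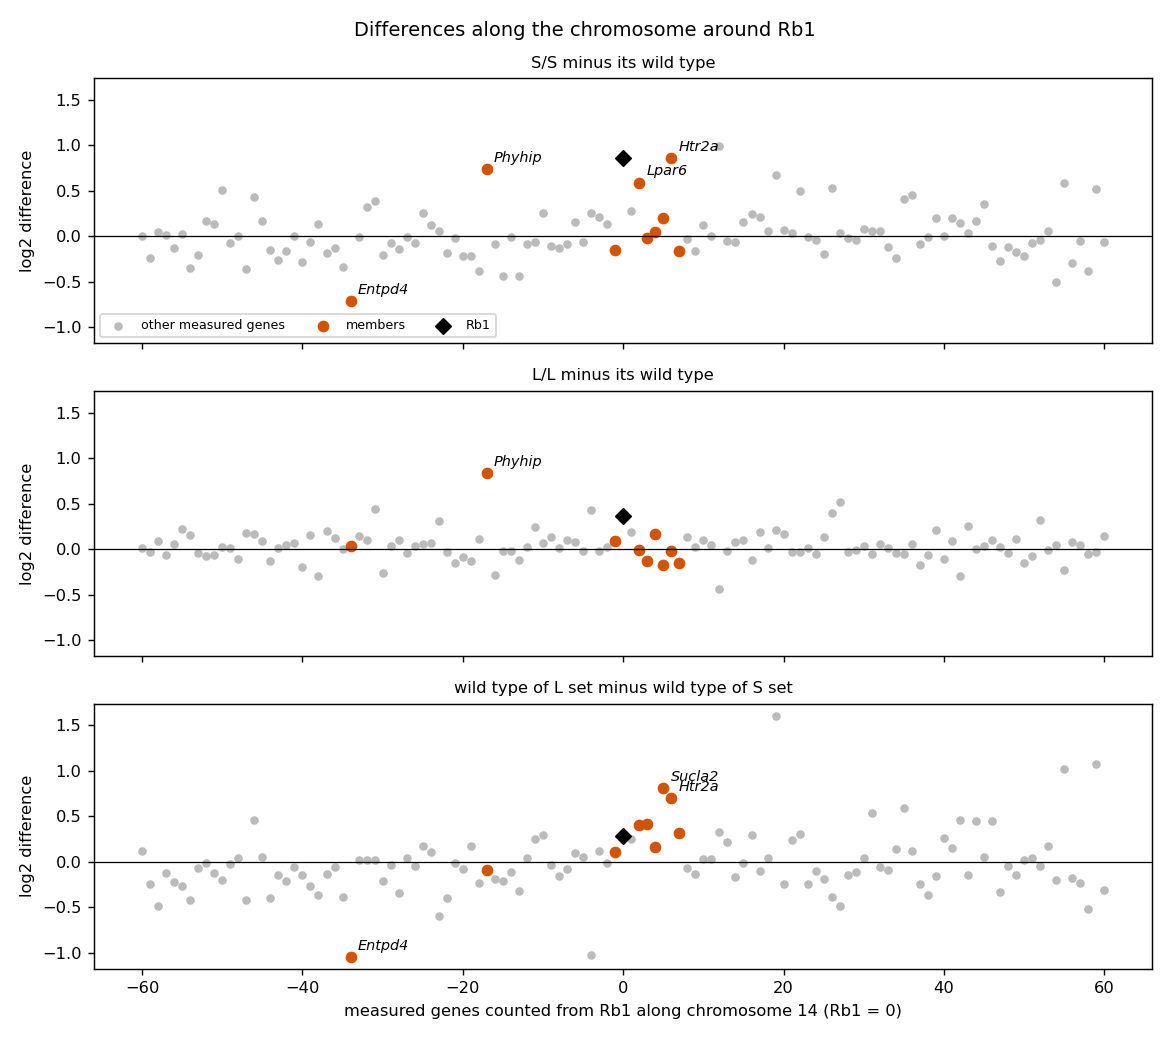
Log2 differences of the measured genes within 60 places of Rb1 on chromosome 14, by their order from Rb1, for S/S and L/L against their wild types and for the wild types against each other. Grey points are other genes, orange points the 9 genes described and the black diamond Rb1; members beyond 0.5 are named. In both mutants most grey points lie near 0 and the points beyond 0.5 are few.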

How the data were processed

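Per the series' design text, the authors made RMA values in Partek, and the deposited values, which ran from 2.43 to 14.67, are on a log2 scale as read from their range. The Partek version and genome build are not given in the sources used here. Of 35556 probe sets, 21789 carried 1 gene symbol, 1621 several and 12146 none. Each gene was read from its single-symbol probe set, the highest in mean for 999 genes with several, which left 19938 genes. Group means were fitted over 12 arrays with limma 3.58.1 (lmFit, eBayes) in R 4.3.3, with Benjamini-Hochberg adjustment over all genes and a threshold of 0.05. A fit of simulated data tested the code. The number of arrays limits the precision. Gene places came from the RefSeq table by Entrez ID, found for 19856 genes. Other genes between Entpd4 and Esd were named when they passed or, with at most 5 per comparison, had the lowest p; for the picked members the 3 genes of closest standardized profile were named. Members and lists were chosen with earlier results of these data known. Alternatives were leaving out arrays, each set alone, array weights, a replicate block, quantile normalization, a trended robust variance, the second probe set and filters on low values. Same-numbered arrays deviated with correlations from −0.122 to 0.475 in the S set and 0.058 to 0.601 in the L set, so the numbers were not taken as pairs.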

Additional observations from a re-analysis of the deposited data

How the results depend on the processing

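Of 860 values of single genes under 22 other settings, 756 kept their direction and side of the threshold, 63 lost and 6 gained a call, and 35 changed sign. The count of 3 members passing in S/S was 0 to 3 when 1 array was left out. It was 0 with each set fitted alone, 0 with every probe set tested, and 1 (Htr2a) without both male arrays. It was 0 without both arrays numbered 1 of the S set, a setting chosen after seeing the data. Phyhip, Entpd4 and Htr2a have 1 probe set each. With every probe set tested their differences therefore stayed the same, and the adjustment ran over 35556 tests. The count of 1 in L/L was 0 to 1 without an array and 0 with every probe set tested. This count was also 0 without the male arrays and 0 with the replicate block. Between the effects it was 2 in place of 0 with array weights (Htr2a and Entpd4). Between the wild types the 4 calls were Htr2a, Entpd4, Itm2b and Sucla2, against 8.71% of all genes. Htr2a and Entpd4 were taken as picked on differences that use the same S-set control, so nothing is read from this count. It was 1 to 4 without an array, 1 without the male arrays (Entpd4) and 7 with the replicate block, where numbers do not pair the samples. With array weights 2 of the 32 other genes passed in S/S and 1 in L/L, and 1 in L/L without both arrays numbered 1. The replicate block gave 2 members in S/S. Over all genes, S/S gave 24 calls and 2 to 44 under the other settings but 415 with array weights, L/L 8 calls and 2 to 42 but 336, and the effects 3 calls and 3 to 21 but 293. The wild types gave 1736 calls, 6520 with array weights and 3902 with the block. They gave 2870 without both arrays numbered 1 of the S set, 304 without the male arrays and 525 to 2078 without 1 array. The cause of these moves was not tested.

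Sign changes were found among differences that did not pass. With the second probe set Med4 was −0.02 in S/S and Esd 0.02 between effects. With array weights, S/S gave −0.10 for Med4 and −0.01 for Sucla2, L/L gave 0.05 for Lpar6, the contrast of effects gave 0.01 for Phyhip and −0.06 for Itm2b, and the wild types gave 0.01 for Phyhip and −0.15 for Rcbtb2. Without the male arrays Htr2a was 0.08 in L/L and Esd 0.02 between effects. Without both arrays numbered 1 of the S set, S/S gave −0.19 for Med4 and −0.10 for Sucla2, the effects −0.0016 for Itm2b, and the wild types −0.13 for Rcbtb2. Without 1 array, S/S spanned −0.39 to 0.01 for Rcbtb2, −0.14 to 0.06 for Itm2b, −0.10 to 0.15 for Med4 and −0.04 to 0.35 for Sucla2. L/L spanned −0.13 to 0.08 for Htr2a, −0.02 to 0.11 for Entpd4 and −0.10 to 0.12 for Lpar6. The effects spanned −0.01 to 0.19 for Itm2b and −0.22 to 0.12 for Esd, and the wild types −0.13 to 0.24 for Rcbtb2.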
